A study of Mus musculus with 9 samples.

Results

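The 9 genes described here, Tsen15, Tsen34, Tsen54, Toe1, Sepsecs, Vrk1, Ampd2, Chmp1a and Slc25a46, are mouse counterparts of genes mutated in pontocerebellar hypoplasia that do not encode RNA exosome subunits. They were chosen by name for that disease link, and are 9 of the 24318 genes in the deposited tables. All 9 were expressed, passed the filter of a mean of at least 1 FPKM (fragments scaled to the length of the transcript and the size of the library) and were tested in both knockdowns.

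RNA was sequenced from N2A (Neuro2A) cells, a mouse neuroblastoma line, that carried a scramble siRNA, an siRNA against EXOSC3 (siEXOSC3) or an siRNA against DDX1 (siDDX1), delivered by lipid transfection. The labels give the genotype as WT for scramble and as EXOSC3 knockdown or DDX1 knockdown for the others, with the treatment Untreated for all 3 conditions. Each condition had 3 biological replicates, giving 9 libraries in all, and the p-values measure the spread between these replicates of 1 cell line. The knockdowns are transient and partial: Exosc3 transcript was left at 15.5% ± 1.90 (SD, n = 3) of scramble in siEXOSC3 cells and Ddx1 at 24.4% ± 2.99 (SD, n = 3) in siDDX1 cells. Ribosomal RNA was depleted and the library kit kept no strand, so where genes on opposite strands overlap their reads cannot be told apart. The siEXOSC3 table and the siDDX1 table each hold 1 knockdown with the same 3 scramble libraries and were scaled separately. The comparisons thus share their controls, and each knockdown is set only against the scramble values of its own table. Read numbers cannot be recovered from FPKM and absolute depth is unknown. A rough estimate from the values of very low genes put the libraries between 0.83 and 1.20 relative to scramble replicate 1. In each other library, only 19.1% to 23.0% of those genes lay near the estimate. Of 10 neuronal and neuroblastoma markers, 8 had a mean of at least 1 FPKM, whereas the neurofilament genes Nefl and Nefm were near 0. Glial, fibroblast and blood markers together summed to only a few FPKM in every library.

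Pontocerebellar hypoplasia is a group of inherited disorders in which the cerebellum and the pons are small from early life and often degenerate further. Mutations in EXOSC3, a cap subunit of the RNA exosome, cause one form, and most of the other known genes also act in housekeeping steps that every cell performs. Several of these steps concern RNA. TSEN15, TSEN34 and TSEN54 are subunits of the endonuclease that cuts introns out of precursor tRNAs, and TOE1 is a deadenylase that trims the 3′ ends of small nuclear RNAs. SEPSECS makes the selenocysteine carried by its own tRNA. The remaining members are the nuclear kinase VRK1, the AMP deaminase AMPD2, the ESCRT-III protein CHMP1A and the outer mitochondrial membrane protein SLC25A46.

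Promoter windows from the RefSeq table of GRCm38.p6 were searched for 7 of the 9 genes, running from 250 bases before to 50 bases after each start. Sepsecs and Slc25a46, the member that rose, were not among them, so the counts below do not cover these genes. Printed here are the 100 bases before the start of Toe1 and Tsen15, the members that fell on EXOSC3 depletion, and of Tsen34 and Tsen54, which encode partners of TSEN15 and did not pass the test. All are given 5′ to 3′ on the strand of the gene, and capitals mark the GC box GGGCGG or its reverse complement CCGCCC. They lie at chr4:116807560-116807659 (minus strand) for Toe1, chr1:152386683-152386782 (minus strand) for Tsen15, chr7:3693510-3693609 (plus strand, the first of 2 starts) for Tsen34 and chr11:115814639-115814738 (plus strand) for Tsen54.
Toe1: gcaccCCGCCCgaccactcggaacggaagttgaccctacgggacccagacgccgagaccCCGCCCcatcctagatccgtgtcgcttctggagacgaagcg
Tsen15: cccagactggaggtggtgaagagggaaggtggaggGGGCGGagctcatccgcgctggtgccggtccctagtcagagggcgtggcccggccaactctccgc
Tsen34: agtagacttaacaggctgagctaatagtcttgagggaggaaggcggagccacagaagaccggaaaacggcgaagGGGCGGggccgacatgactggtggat
Tsen54: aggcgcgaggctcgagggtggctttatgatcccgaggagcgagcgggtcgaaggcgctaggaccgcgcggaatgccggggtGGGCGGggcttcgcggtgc
Each of these 4 stretches holds at least 1 GC box, with 2 in that of Toe1. Over the whole windows, searched on both strands, a GC box occurs in 8 of the 12 windows of these 7 genes (in 6 of the genes, all but Vrk1, which has several starts), and in 35.7% of the 32851 windows of the table. The letters CCAAT or their reverse complement occur in 2 of the 12 windows, 1 each of Toe1 and Vrk1, and in 37.4% of all windows. These matches are a description of the letters in the windows, and the GC box is found alike beside members that fell and members that did not pass the test.

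In scramble-treated cells, the members spanned a range from a mean of 43.9 FPKM for Tsen15 to 7.09 FPKM for Tsen54 in the siEXOSC3 table. Since FPKM is a level per transcript length, the members can be ordered: Tsen15 was highest, followed by Tsen34 at 30.3 FPKM, Vrk1 at 22.0 FPKM, Chmp1a at 21.1 FPKM, Ampd2 at 18.5 FPKM, Slc25a46 at 12.2 FPKM, Toe1 at 10.9 FPKM, Sepsecs at 8.06 FPKM and Tsen54. The scramble values of Vrk1 and Chmp1a overlapped, as did those of Slc25a46 and Toe1 and those of Sepsecs and Tsen54, so these neighbours are not separated by the spread between libraries.

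**Figure D1:**
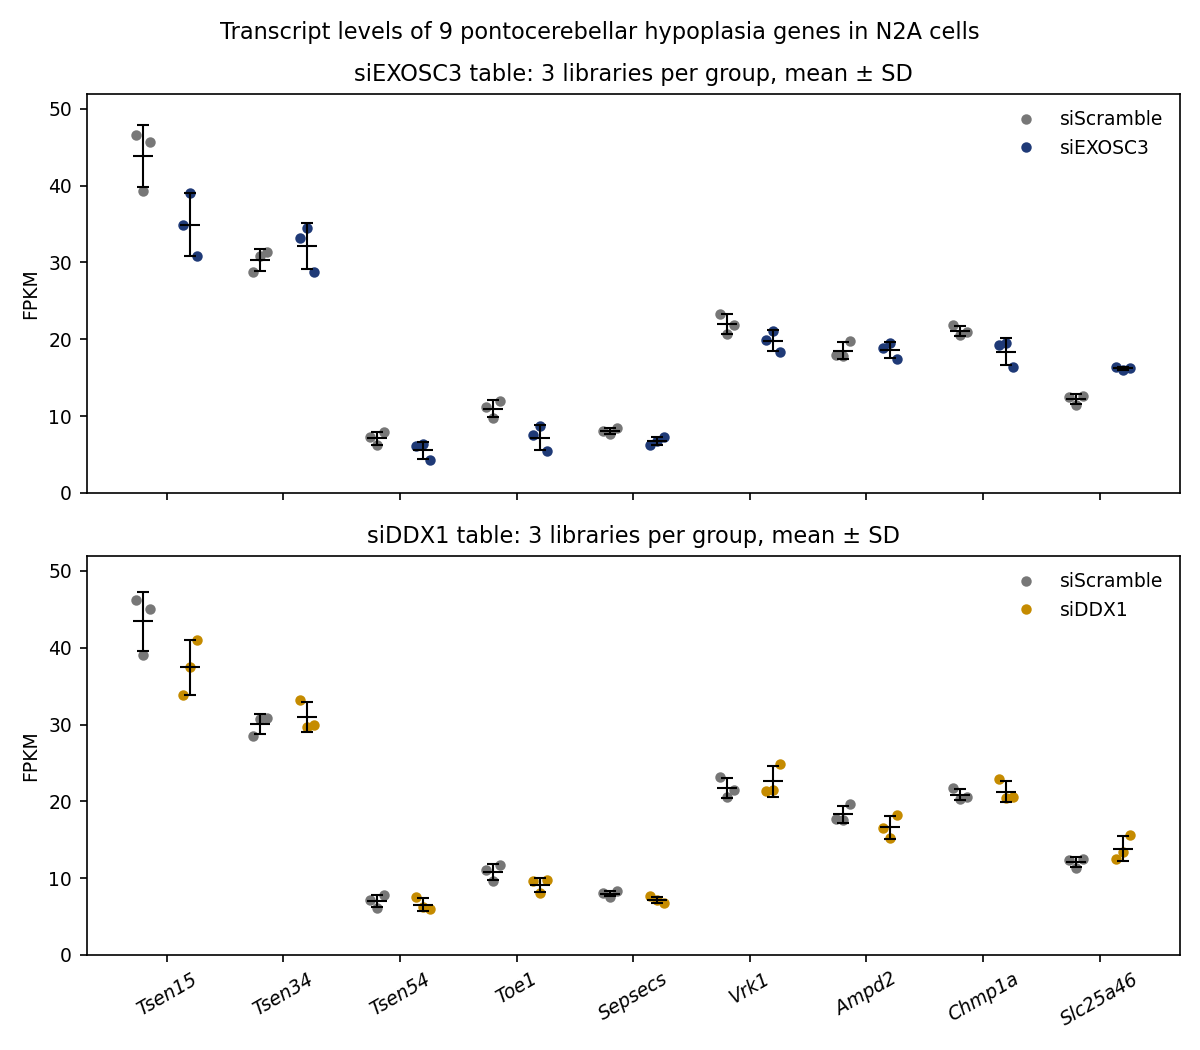
Level of each disease gene in FPKM (vertical axis, linear from 0), with siEXOSC3 in the upper panel and siDDX1 in the lower. Points are single libraries, grey for scramble and coloured for the knockdown, and black bars are the mean ± SD of 3 libraries; in the upper panel the siEXOSC3 points of Toe1, Tsen15, Sepsecs and Chmp1a lie below all their scramble points and those of Slc25a46 lie above.

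On EXOSC3 depletion, 3 of the 9 disease genes changed: Toe1 and Tsen15 fell and Slc25a46 rose. That is 33.3% of the members, beside 32.4% of all 11242 genes tested, of which 16.7% rose and 15.7% fell, so the members changed at about the rate of the transcriptome as a whole. Leaving out siEXOSC3 replicate 1, scramble replicate 1 or scramble replicate 3 ended the calls of Toe1 and Tsen15, as did testing without the filter on low values or with the replicate number as a block, and only Slc25a46 then passed. The 3 siEXOSC3 values lay below all 3 scramble values for 4 members (Toe1, Tsen15, Sepsecs and Chmp1a) and above them for 1 (Slc25a46), beside 25.9% of all genes below and 23.8% above. The median log2 fold change of the members was -0.192, against -0.014 for all genes. On DDX1 depletion, 0 of the 9 passed the limma test, beside 5.61% of the 11104 genes tested that rose and 5.03% that fell. At an unadjusted p under 0.05 there was 1 member, Tsen15, or 11.1% of the members beside 30.1% of all genes. The siDDX1 values lay above all scramble values for 1 member, Slc25a46, and below for 0, beside 17.0% and 17.8% of all genes. Here the members' median log2 fold change was -0.094, against -0.001 for all genes.

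**Figure D2:**
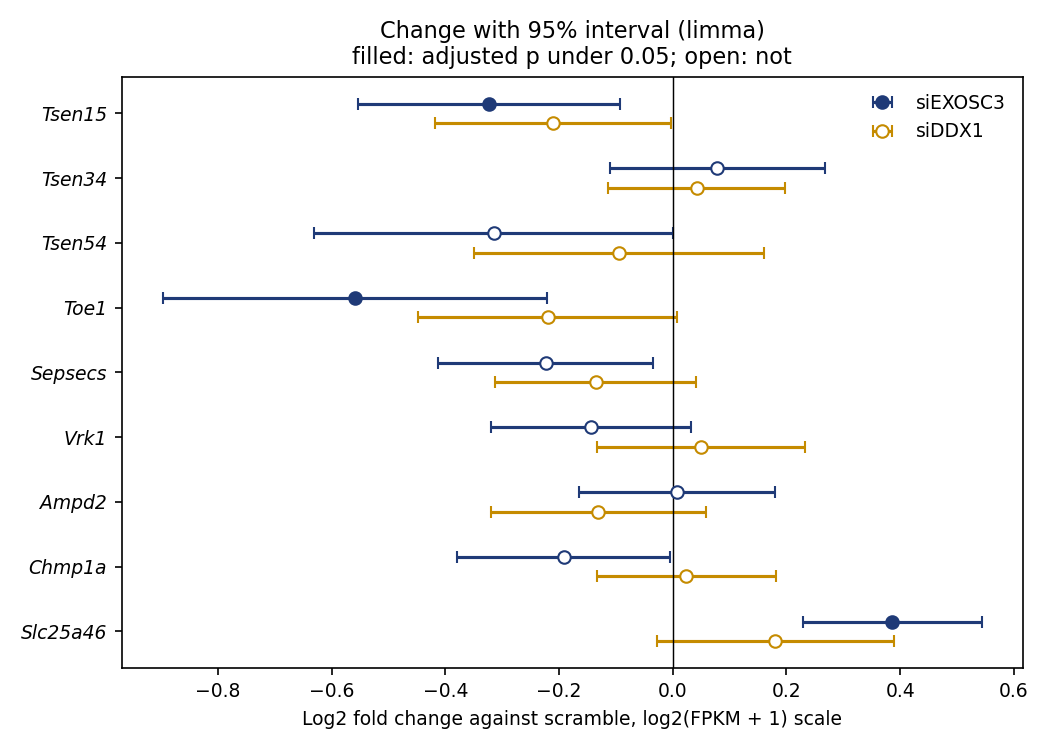
Log2 fold change of each disease gene against scramble on the log2(FPKM + 1) scale (horizontal axis) with its 95% interval from limma, blue for siEXOSC3 and ochre for siDDX1. Filled points passed an adjusted p of 0.05; only Toe1 (-0.56), Tsen15 (-0.32) and Slc25a46 (0.39) in siEXOSC3 did.

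Of the genes for subunits of the tRNA splicing endonuclease, Tsen15 passed the test in siEXOSC3 cells and Tsen34 and Tsen54 did not. TSEN15 is a non-catalytic subunit that pairs with the catalytic subunit TSEN34. Tsen15 (chr1:154217865-154233818 in NCBIM37, the sequence of mm9, minus strand) measured 46.6, 39.3 and 45.7 FPKM in the scramble libraries and 34.9, 39.0 and 30.9 FPKM in the siEXOSC3 libraries. All siEXOSC3 values lay below all scramble values, but by a narrow margin, as siEXOSC3 replicate 2 nearly reached scramble replicate 2. The level fell to 79.6% ± 9.34 (SD, n = 3) of scramble, a log2 fold change of -0.32 (SE 0.101, 95% interval -0.55 to -0.09, limma adjusted p = 0.0401). The call ended without siEXOSC3 replicate 1 (adjusted p = 0.103), siEXOSC3 replicate 3 (0.0726), scramble replicate 1 (0.143) or scramble replicate 3 (0.128) in the limma fit. In the siDDX1 table the scramble libraries measured 46.2, 39.0 and 45.1 FPKM and the siDDX1 libraries 33.8, 37.5 and 41.0 FPKM. The groups overlapped through siDDX1 replicate 3, and the log2 fold change of -0.21 had a 95% interval of -0.42 to -0.0022 before adjustment and did not pass (limma adjusted p = 0.162). In bulk RNA, a lower level in every cell and a smaller number of cells with the transcript cannot be told apart.

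Tsen34 (chr7:3644977-3652625, plus strand), the catalytic partner of TSEN15, measured 28.7, 30.9 and 31.3 FPKM in scramble and 33.2, 34.5 and 28.7 FPKM in siEXOSC3 cells. With siDDX1 it measured 33.2, 29.7 and 29.9 FPKM, against 28.5, 30.7 and 30.9 FPKM in scramble. The groups overlapped in both tables. Its log2 fold change was 0.08 in siEXOSC3 (95% interval -0.11 to 0.27, limma adjusted p = 0.486) and 0.04 in siDDX1 (95% interval -0.11 to 0.20, adjusted p = 0.717). Of its exonic bases, 6.17% overlap Mboat7 on the opposite strand, which is itself expressed at up to 13.0 FPKM.

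Tsen54 (chr11:115676038-115684408, plus strand), a non-catalytic subunit and the one most often mutated in the disease, measured 7.21, 6.19 and 7.87 FPKM in scramble and 6.06, 6.30 and 4.28 FPKM in siEXOSC3 cells. Scramble replicate 2 fell within the siEXOSC3 values, so the groups overlapped. The log2 fold change of -0.31 was close in size to that of Tsen15 but less precise (95% interval -0.63 to 0.0013, limma adjusted p = 0.111). In siDDX1 libraries it measured 7.48, 6.17 and 5.92 FPKM, against 7.16, 6.14 and 7.78 FPKM in scramble, a log2 fold change of -0.09 (95% interval -0.35 to 0.16, limma adjusted p = 0.607).

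Because the subunits assemble into 1 enzyme, their levels were also set against each other within each library, a comparison chosen after the values had been seen. The ratio of Tsen15 to Tsen34 was 1.62, 1.27 and 1.46 in the scramble libraries and 1.05, 1.13 and 1.08 in the siEXOSC3 libraries. No siEXOSC3 library reached the lowest scramble library, and the mean ratio went from 1.45 ± 0.175 (SD, n = 3) to 1.09 ± 0.0419 (SD, n = 3); the exact two-sided permutation p = 0.1, the smallest that 3 libraries against 3 can give. Tsen54 to Tsen34 also separated the groups, with 0.251, 0.200 and 0.252 in scramble and 0.182, 0.183 and 0.149 in siEXOSC3 libraries (exact permutation p = 0.1). In the siDDX1 table the Tsen15 to Tsen34 ratio was 1.02, 1.26 and 1.37, against the same scramble ratios, and the groups overlapped (exact permutation p = 0.2). The Tsen54 to Tsen34 ratio was 0.225, 0.207 and 0.198 there and overlapped scramble too (exact permutation p = 0.3). As no permutation test of 3 libraries against 3 can pass 0.05, these ratios are a description, and an unequal change of the subunits is not shown by them.

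**Figure D3:**
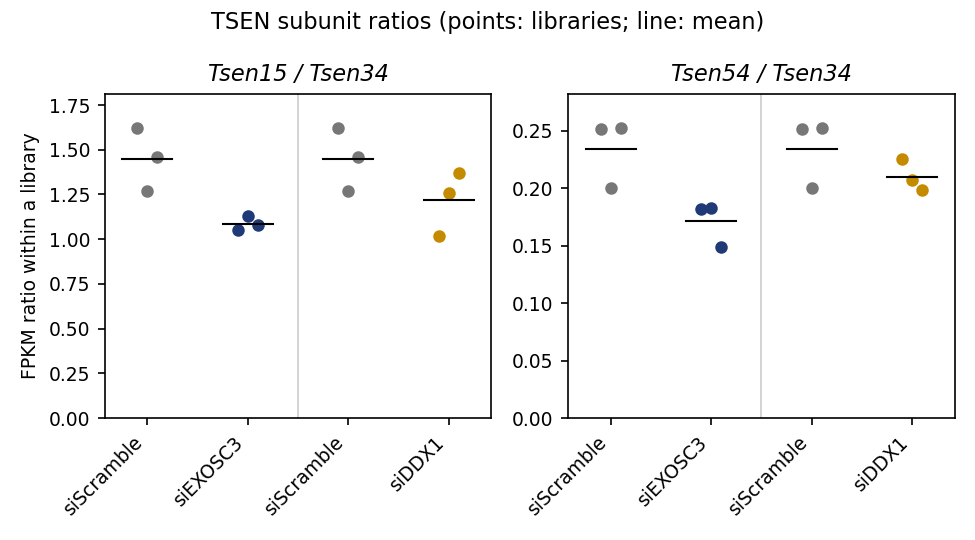
Ratio of FPKM within each library (vertical axes, from 0) for Tsen15 and Tsen54 over Tsen34, with the siEXOSC3 table to the left of the grey line and the siDDX1 table to its right; points are libraries and lines are means of 3. The Tsen15 ratio lies between 1.05 and 1.13 in siEXOSC3 and between 1.27 and 1.62 in scramble libraries.

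Toe1 showed the largest change of the 9 genes. It lies at chr4:116466915-116480245 (minus strand) and measured 11.2, 9.72 and 11.9 FPKM in scramble and 7.47, 8.68 and 5.40 FPKM in siEXOSC3 libraries. The groups were separate, although the siEXOSC3 libraries were widely spread and replicate 3 was the lowest. The level fell to 65.8% ± 15.2 (SD, n = 3) of scramble, a log2 fold change of -0.56 (SE 0.148, 95% interval -0.90 to -0.22, limma adjusted p = 0.0226). The call ended in the limma fit without siEXOSC3 replicate 1 (adjusted p = 0.0567), scramble replicate 1 (0.0789) or scramble replicate 3 (0.0876). In absolute size this change exceeded that of 91.2% of all genes tested. With siDDX1, Toe1 measured 9.63, 8.08 and 9.73 FPKM against 11.1, 9.64 and 11.7 FPKM in scramble. Only scramble replicate 2 reached into the siDDX1 range, and the log2 fold change was -0.22 (95% interval -0.45 to 0.0074, limma adjusted p = 0.177). Annotation places Tesk2 on the opposite strand across 40.7% of the exonic bases of Toe1. Tesk2 was listed at no more than 1.14 FPKM in any library, and the part of its reads in the Toe1 values was not tested. Mutyh, a DNA glycosylase gene that starts 83 bp from the start of Toe1 and points away from it, was listed at no more than 0.546 FPKM.

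By the correlation of log2 values over the 6 libraries of the siEXOSC3 table, the genes most like Toe1 were 1110059G10Rik (r = 0.9991), Wdhd1 (r = 0.9984), which encodes a DNA replication factor, and Rab23 (r = 0.9971), which encodes a small GTPase. These points share libraries and 1 contrast, and as many as 753 genes reached an r of at least 0.95, so the likeness is a description only.

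Other genes that act on RNA 3′ ends gave mixed values. Of 11 deadenylases and snRNA trimming enzymes tested, 1 rose and 2 fell in siEXOSC3 cells, and 0 passed the limma test in siDDX1 cells (2 at an unadjusted p under 0.05). Rises made up 9.09% and falls 18.2% of the list in siEXOSC3 cells, beside 16.7% and 15.7% of all genes. In siDDX1 cells 5.61% of all genes rose, 5.03% fell and 30.1% had an unadjusted p under 0.05. Pan3, which encodes a subunit of the PAN2-PAN3 deadenylase, fell from 17.4 ± 0.702 to 12.8 ± 0.357 FPKM (SD, n = 3; log2 fold change -0.41, limma adjusted p = 0.00408). Angel2, a member of the same nuclease superfamily as the CCR4 deadenylases, fell by 0.31 on the log2 scale (limma adjusted p = 0.0170). Cnot6l, which encodes a CCR4-NOT deadenylase, rose by 0.26 on that scale (limma adjusted p = 0.0291). Its call passed in only 8 of 15 alternative settings, and that of Angel2 in 11 of 15.

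Sepsecs encodes the synthase that converts phosphoseryl-tRNA to selenocysteinyl-tRNA. The gene (chr5:53031326-53060968, minus strand) measured 8.11, 7.64 and 8.43 FPKM in scramble and 6.24, 6.81 and 7.25 FPKM in siEXOSC3 libraries. The groups did not overlap, but the log2 fold change of -0.22 (SE 0.0826, 95% interval -0.41 to -0.03) missed the threshold after adjustment over all genes (limma adjusted p = 0.0682). In siDDX1 libraries it measured 7.62, 7.12 and 6.82 FPKM, against 8.05, 7.58 and 8.34 FPKM in scramble, with overlap and a log2 fold change of -0.14 (95% interval -0.31 to 0.04, limma adjusted p = 0.272). Of 7 other genes for selenocysteine synthesis and insertion, 1 fell and 0 rose in siEXOSC3 cells, or 14.3% falling beside 15.7% of all genes falling and 16.7% rising. The gene that fell was Sephs1, a paralog of the selenophosphate synthetase gene, at -0.42 on the log2 scale (limma adjusted p = 0.0496). Its call passed in only 2 of 15 alternative settings. In siDDX1 cells 0 of the 7 passed the limma test (4 at an unadjusted p under 0.05), beside 10.6% of all genes called and 30.1% at an unadjusted p under 0.05. Among 15 selenoprotein genes tested, 3 fell and 0 rose in siEXOSC3 cells, and 0 passed the limma test in siDDX1 cells (1 at an unadjusted p under 0.05, beside 30.1% of all genes). The 20.0% that fell in siEXOSC3 cells is near the 15.7% of all genes that fell. Those that fell were Selenoh, listed as 2700094K13Rik (-0.46, limma adjusted p = 0.0162), Selenos, listed as Vimp (-0.25, adjusted p = 0.0414), and Txnrd1, the cytosolic thioredoxin reductase (-0.20, adjusted p = 0.0308). Under the alternative settings Selenoh passed in 11 of 15, Selenos in only 3 of 14 and Txnrd1 in 8 of 15. The median log2 fold change of the selenoprotein genes was -0.01, close to that of all genes.

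Vrk1 encodes a kinase that phosphorylates chromatin proteins and the barrier-to-autointegration factor as the nuclear envelope is taken apart and rebuilt. The gene (chr12:107248473-107315620, plus strand) measured 23.3, 20.7 and 21.8 FPKM in scramble and 19.9, 21.1 and 18.4 FPKM in siEXOSC3 libraries. With siDDX1 it measured 21.4, 21.5 and 24.9 FPKM, against 23.2, 20.6 and 21.5 FPKM in scramble. Groups overlapped in both tables, with a log2 fold change of -0.14 in siEXOSC3 (95% interval -0.32 to 0.03, limma adjusted p = 0.181) and 0.05 in siDDX1 (95% interval -0.13 to 0.23, adjusted p = 0.716). Among 9 of its relatives and nuclear envelope partners, 1 rose and 2 fell in siEXOSC3 cells, and 1 rose and 0 fell in siDDX1 cells. In siEXOSC3 cells this was 11.1% rising and 22.2% falling, beside 16.7% and 15.7% of all genes, and in siDDX1 cells 11.1% rising, beside 5.61%, and 0 falling, beside 5.03%. In siEXOSC3 cells the lamin A/C gene Lmna rose from 39.0 ± 1.85 to 64.2 ± 16.5 FPKM (SD, n = 3; limma adjusted p = 0.0136) and the lamin B1 gene Lmnb1 fell from 42.5 ± 0.906 to 28.4 ± 3.45 FPKM (SD, n = 3; adjusted p = 0.00364). Banf1, which encodes the barrier-to-autointegration factor, rose in siDDX1 cells from 115 ± 2.63 to 159 ± 18.4 FPKM (SD, n = 3; limma adjusted p = 0.0177), and had a log2 fold change of -0.17 in siEXOSC3 cells (adjusted p = 0.283).

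Ampd2 encodes an AMP deaminase, which turns AMP into IMP and so feeds the guanine nucleotide pool. It was the member with the smallest change on EXOSC3 depletion. The gene (chr3:107876980-107889569, minus strand) measured 17.9, 17.8 and 19.8 FPKM in scramble and 18.8, 19.5 and 17.4 FPKM in siEXOSC3 libraries, a log2 fold change of 0.01 (95% interval -0.16 to 0.18, limma adjusted p = 0.942). In siDDX1 libraries it measured 16.5, 15.2 and 18.2 FPKM, against 17.7, 17.6 and 19.6 FPKM in scramble, a log2 fold change of -0.13 (95% interval -0.32 to 0.06, limma adjusted p = 0.317). Its groups overlapped in both tables. Annotation places Gm12500 on the opposite strand across 8.56% of the exonic bases of Ampd2. Of 18 other purine synthesis and interconversion genes tested, 4 rose and 0 fell in siEXOSC3 cells, and 1 rose and 1 fell in siDDX1 cells. The 22.2% that rose in siEXOSC3 cells stands beside 16.7% of all genes that rose, and the 0 that fell beside 15.7%. In siDDX1 cells the list had 5.56% each way, beside 5.61% of all genes rising and 5.03% falling. Impdh1, which encodes an enzyme of the step from IMP towards GMP, rose in both: from 19.1 ± 0.894 to 26.7 ± 0.0731 FPKM in siEXOSC3 (SD, n = 3; limma adjusted p = 0.00253) and from 19.0 ± 0.852 to 26.0 ± 0.171 FPKM in siDDX1 cells (SD, n = 3; adjusted p = 0.00751). Adssl1, an adenylosuccinate synthase gene, rose by 0.87 on the log2 scale in siEXOSC3 cells (limma adjusted p = 0.00810), and Gmpr, the GMP reductase gene, by 0.63 (adjusted p = 0.0281).

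Chmp1a encodes a subunit of ESCRT-III, the machinery that pinches off membranes at endosomes and at the end of cell division. The gene (chr8:125728164-125736663, minus strand) measured 21.8, 20.5 and 20.9 FPKM in scramble and 19.3, 19.5 and 16.4 FPKM in siEXOSC3 libraries. Every siEXOSC3 value lay below every scramble value, yet the log2 fold change of -0.19 did not pass (95% interval -0.38 to -0.0044, limma adjusted p = 0.103). With siDDX1 it measured 22.9, 20.4 and 20.5 FPKM, against 21.7, 20.3 and 20.6 FPKM, and the log2 fold change was 0.02 (95% interval -0.13 to 0.18, limma adjusted p = 0.851), with overlap. Of 14 other ESCRT-III and VPS4 genes tested, 3 rose and 2 fell in siEXOSC3 cells, and 1 rose and 0 fell in siDDX1 cells. Rises were 21.4% and falls 14.3% of the list in siEXOSC3 cells, near the shares over all genes, and in siDDX1 cells 7.14% rose, beside 5.61% of all genes, and 0 fell, beside 5.03%. Chmp1b, the closest relative of Chmp1a by name, rose in siEXOSC3 cells from 11.8 ± 0.639 to 14.7 ± 0.813 FPKM (SD, n = 3; limma adjusted p = 0.020). Chmp2a rose from 82.3 ± 2.83 to 119 ± 14.1 FPKM (SD, n = 3; limma adjusted p = 0.00536). Stambp, which encodes an endosomal deubiquitinase, rose by 0.53 on the log2 scale in siEXOSC3 (limma adjusted p = 0.00835) and by 0.31 in siDDX1 cells (adjusted p = 0.0345), where the call passed in only 8 of 15 alternatives.

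Slc25a46 was the only member that rose past the threshold, and its siEXOSC3 libraries agreed most closely. The protein belongs to the mitochondrial carrier family but sits in the outer membrane, where it takes part in mitochondrial fusion, fission and lipid transfer. It measured 12.5, 11.4 and 12.6 FPKM in scramble and 16.4, 16.0 and 16.3 FPKM in siEXOSC3 libraries. The lowest siEXOSC3 library stood well above the highest scramble library. The level reached 133% ± 1.74 (SD, n = 3) of scramble, a log2 fold change of 0.39 (SE 0.0689, 95% interval 0.23 to 0.54, limma adjusted p = 0.00573). In siDDX1 libraries it measured 12.5, 13.4 and 15.6 FPKM against 12.4, 11.3 and 12.5 FPKM in scramble. These values also lay above scramble, but siDDX1 replicate 1 only marginally so, and the log2 fold change of 0.18 did not pass (95% interval -0.03 to 0.39, limma adjusted p = 0.219). An annotated gene on the opposite strand, B930094E09Rik, covers 10.5% of the exonic bases of Slc25a46. The transcript has a GC content of 40.7%, lower than that of all but 6.34% of the genes with a value, and genes within 1 percentage point of it had a median log2 fold change of -0.099 in siEXOSC3. With the GC and length trend removed from each library, Slc25a46 had a log2 fold change of 0.44 (limma adjusted p = 0.00368). Of 13 mitochondrial fusion, fission and MICOS genes, 2 rose and 2 fell in siEXOSC3 cells, and 2 rose and 0 fell in siDDX1 cells. In siEXOSC3 cells each direction held 15.4% of the list, near the shares over all genes. In siDDX1 cells 15.4% rose, beside 5.61% of all genes, and 0 fell, beside 5.03%; nothing particular to the list is read from 2 genes. Chchd6, which encodes a MICOS subunit of the inner membrane, rose in both (0.42 on the log2 scale, limma adjusted p = 0.00434, and 0.43, adjusted p = 0.0292), but its siDDX1 call passed in only 8 of 15 alternatives. Apool, another MICOS gene, fell by 0.31 in siEXOSC3 cells (limma adjusted p = 0.0382), and Chchd3 rose by 0.27 in siDDX1 cells (adjusted p = 0.0447), each passing in 6 of 15 alternatives.

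Of 11 other genes linked to pontocerebellar hypoplasia that passed the filter, 3 fell and 0 rose in siEXOSC3 cells, and 1 fell and 0 rose in siDDX1 cells. The falls were 27.3% of the list in siEXOSC3 cells, beside 15.7% of all genes, and 9.09% in siDDX1 cells, beside 5.03% of all genes, and nothing particular to the list is read from these small counts. Clp1 encodes an RNA kinase that associates with the tRNA splicing endonuclease. It fell from 13.5 ± 0.618 to 8.15 ± 1.40 FPKM in siEXOSC3 cells (SD, n = 3; log2 fold change -0.68, 95% interval -0.94 to -0.42, limma adjusted p = 0.00462), an estimate larger in size than that of any of the 9 members. In siDDX1 cells it measured 10.9 ± 0.695 against 13.4 ± 0.636 FPKM (SD, n = 3; limma adjusted p = 0.0509). Ppil1, which encodes a spliceosomal prolyl isomerase, fell in both, by 0.54 on the log2 scale in siEXOSC3 (limma adjusted p = 0.0117) and by 0.43 in siDDX1 cells (adjusted p = 0.00901). Minpp1, an inositol polyphosphate phosphatase gene, fell by 0.33 in siEXOSC3 cells (limma adjusted p = 0.00904). The median log2 fold change of this list was 0.03 in siEXOSC3 cells. Of 8 tRNA splicing and ligation genes, which again include Clp1 and also the targeted gene Ddx1, 2 rose and 2 fell in siEXOSC3 cells, whereas in siDDX1 cells 0 rose and 1, Ddx1 itself, fell. In siEXOSC3 cells these 2 of 8 in each direction stand beside 16.7% of all genes rising and 15.7% falling, and the siDDX1 counts beside 5.61% rising and 5.03% falling. Trpt1, a tRNA phosphotransferase gene, rose from 1.42 ± 0.469 to 2.41 ± 0.423 FPKM in siEXOSC3 cells (SD, n = 3; limma adjusted p = 0.0467). That call passed in only 4 of 14 alternative settings.

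The members' values also moved with single libraries. Scramble replicate 2 was the lowest of the 3 scramble libraries for 8 of the 9 genes in both tables, beside 36.5% of all genes in the table with siEXOSC3 and 35.6% in that with siDDX1. In the same way siEXOSC3 replicate 3 was the lowest siEXOSC3 library for 7 of the 9, beside 42.9% of all genes. Without scramble replicate 2, Toe1 had a log2 fold change of -0.63 (limma adjusted p = 0.0392), Tsen15 -0.40 (adjusted p = 0.0403) and Slc25a46 0.34 (adjusted p = 0.0258). Without siEXOSC3 replicate 3, Toe1 stood at -0.39 (limma adjusted p = 0.0223) and Slc25a46 at 0.38 (adjusted p = 0.00754), whereas Tsen15 no longer passed (-0.24, adjusted p = 0.0726) and Sepsecs did (-0.27, adjusted p = 0.0447), so that 3 members passed there too. Over all 15 alternative settings, Slc25a46 passed in 15, Toe1 in 9 and Tsen15 in 7. The summed level of the neuronal and neuroblastoma markers was also higher in siEXOSC3 libraries, at 757 to 771 FPKM against 457 to 488 FPKM in scramble, and lay at 463 to 503 against 454 to 482 FPKM in the siDDX1 table. Its part in the members' changes was not tested.

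**Figure D4:**
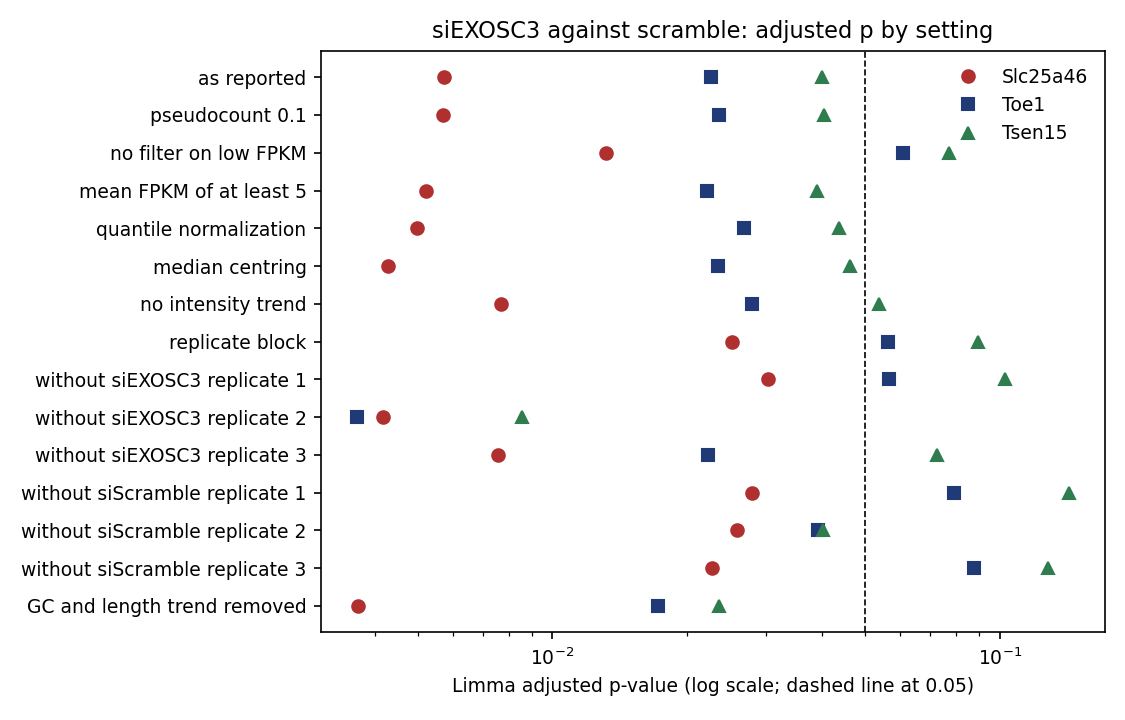
Limma adjusted p-value (horizontal axis, log scale) of the 3 members that changed in siEXOSC3 cells, with a dashed line at 0.05. Rows are the fit as reported and each alternative except the stricter threshold of 0.01, which is not drawn. Slc25a46 stays left of the line in every row, whereas Toe1 and Tsen15 cross it when scramble replicate 1 or 3 or siEXOSC3 replicate 1 is left out, without the filter and with the replicate block, and Tsen15 also without siEXOSC3 replicate 3 and without the intensity trend.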

How the data were processed

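RNA from 3 scramble, 3 siEXOSC3 and 3 siDDX1 cultures of N2A cells was sequenced. The authors aligned reads to mm9 with TopHat version 2.1.0, ran Cuffdiff version 2.2.1 on each knockdown against scramble, and deposited FPKM per gene and library in 2 tables; the annotation and library normalization are not given in the sources used here. From these, log2(FPKM + 1) was tested using R (version 4.3.3) and its package limma (version 3.58.1; lmFit, eBayes with an intensity trend, two-sided, Benjamini-Hochberg over all genes, threshold 0.05) for genes whose mean reached 1 FPKM across a table's 6 libraries. On this scale the fold changes of weakly expressed genes come out too small. The fit was tested on simulated data. The members and lists were chosen with earlier results of these data known. Named genes are all members, the targeted genes, at most 3 genes per list with the largest absolute log2 fold change among those past the threshold, and the 3 genes most correlated with the most changed member. Of the symbols in the lists, 12 were matched by a RefSeq synonym. Gene positions come from GENCODE vM1 on NCBIM37. Figures were drawn with matplotlib version 3.10.9.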

Additional observations from a re-analysis of the deposited data

How the results depend on the processing

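Of the 9 disease genes, 3 changed in siEXOSC3 cells as reported, beside 32.4% of all genes. The count was 1 (Slc25a46) without the filter on low FPKM (18.4% of all genes), 1 with the replicate number as a block (21.8%) and 1 at an adjusted p under 0.01 (12.0%), and ranged from 1 to 4 when single libraries were left out. It was 1 without siEXOSC3 replicate 1 (18.2% of all genes), scramble replicate 1 (14.3%) or scramble replicate 3 (17.7%), and 4 without siEXOSC3 replicate 2 (43.5%), where Tsen54 also passed (limma adjusted p = 0.0452). In siDDX1 cells the count of 0 became 1 without siDDX1 replicate 3 (Tsen15, limma adjusted p = 0.0307), where the share of all genes called went from 10.6% to 31.8%, and ranged from 0 to 1. The causes were not tested. The replicate numbers are not known to pair the samples. Same-numbered libraries had deviations correlated at 0.035, -0.31 and -0.126 for siEXOSC3 and at -0.012, 0.379 and 0.372 for siDDX1. In siDDX1 the crossed pairs of replicates 2 and 3 stood at -0.376 and -0.372. With the block, Toe1 had a limma adjusted p = 0.0562 and Tsen15 0.0895 in siEXOSC3 cells. In siDDX1 cells the block raised the share of all genes called from 10.6% to 17.0%, and 0 members passed.

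Of 270 member values under the alternatives, 242 kept their direction and their side of the threshold. Another 10 changed sign, all of them near 0 and none past the threshold. The 18 values at an adjusted p under 0.01 came from the fit as reported, so their direction could not change. Most of the 270 belong to comparisons that had not passed as reported. Ampd2 in siEXOSC3 became -0.00244, -0.0258, -0.0144 and -0.0180 without siEXOSC3 replicate 1, siEXOSC3 replicate 2, scramble replicate 1 and scramble replicate 2, with a range of -0.0258 to 0.0559 over all libraries left out in turn. In siDDX1 cells, Tsen34 became -0.00748 and Chmp1a -0.0284 without siDDX1 replicate 1, and Vrk1 became -0.0180 without siDDX1 replicate 3; leaving out single libraries gave at most 0.0694 for Tsen34, 0.0503 for Chmp1a, and 0.0935 for Vrk1. With the GC and length trend removed, an alternative added after seeing the data, Ampd2 was -0.0723 in siEXOSC3, and Tsen34 -0.00449 and Chmp1a -0.0220 in siDDX1 cells; Chmp1a then passed in siEXOSC3 (limma adjusted p = 0.0458). Of the 21 list genes named as changed in siEXOSC3 cells, 9 passed under every alternative, and 1 of the 6 named in siDDX1 cells. Among the others in siEXOSC3 cells, Sephs1 passed in 2 of 15 alternatives, Apool in 6, Txnrd1 and Cnot6l in 8, 2700094K13Rik, Gmpr and Angel2 in 11, Lmna in 12 and Ppil1 in 13, and Vimp passed in 3 of 14, Trpt1 in 4 and Chmp1b in 9. In siDDX1 cells Chchd3 passed in 6 of 15, Stambp and Chchd6 in 8, Banf1 in 10 and Ppil1 in 13. Depth is unknown, and 3 libraries per group leave intervals of the size printed beside each change.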
